A study of Mus musculus with 6 samples.

Results

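The ATF4 amino acid response comprises the genes that cells switch on when amino acids run short or translation is stressed. The set described here is a list of names that uses no threshold on measured values, although it was drawn up with earlier results of these data known. It holds 44 genes, of which 41 could be read on the arrays among 22180 genes in all. Gene expression was measured on 6 arrays of mouse mammary stem cells grown as organoids, which are 3-dimensional cultures of mammary epithelium. The lines were generated with CRISPR, and 3 arrays are of wild-type (WT) cells and 3 of Mll3-null cells, which lack MLL3, a histone H3 lysine 4 methyltransferase encoded by Kmt2c. The labels give no mouse strain, age or number of clones, and each array is labelled a biological replicate without saying whether replicates were separate lines or separate cultures, so p-values measure only the spread between these samples. The study asked what loss of MLL3 does to these cells, and the comparison throughout is Mll3-null against WT, on log2 expression values.

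ATF4 is a basic leucine zipper transcription factor. When a stress kinase phosphorylates the initiation factor eIF2, general translation slows while the Atf4 message, which carries short upstream reading frames, is translated more, so ATF4 protein can change with no change of its mRNA. ATF4 pairs with C/EBP proteins on a composite DNA element and switches on enzymes of serine, asparagine and proline synthesis, amino acid transporters, tRNA synthetases and regulators that feed back on the response. An array reads mRNA only, and neither ATF4 protein nor eIF2 phosphorylation was measured. In bulk samples, fewer cells that express a gene and less RNA of it per cell cannot be told apart.

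The composite element, named CARE for C/EBP-ATF response element, is shown because it is the sequence that many genes of this response are known to share. It was searched as TGATGNAA, which reads TTNCATCA on the opposite strand, in promoter windows of 300 bases (250 before to 50 after the start) from RefSeq, build GRCm38.p6. Of 36 members with a window, 13 held a match (36.1%), against 1219 of 27025 genes (4.51%). The members without a window were Eif4ebp1, Aldh1l2, Cth, Slc7a5, Slc7a3, Slc1a5, Nars and Wars. The sequences below lie upstream of the start, are written 5′ to 3′ on the gene's strand and have the match in capitals. The first 4 belong to members whose groups did not overlap, Mll3-null being higher, and the other 4 to members whose groups overlapped.
Asns (chr6:7693210-7693252, minus strand): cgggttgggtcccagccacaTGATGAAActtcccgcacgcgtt
Pck2 (chr14:55540143-55540190, plus strand): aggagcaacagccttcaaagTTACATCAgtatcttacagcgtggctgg
Chac1 (chr2:119351029-119351076, plus strand): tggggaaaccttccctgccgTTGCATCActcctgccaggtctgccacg
Vldlr (chr19:27216800-27216847, plus strand): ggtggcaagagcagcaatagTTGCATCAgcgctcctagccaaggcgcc
Slc7a11 (chr3:50443633-50443680, minus strand): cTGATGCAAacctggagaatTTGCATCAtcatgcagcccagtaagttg
Got1 (chr19:43524680-43524727, minus strand): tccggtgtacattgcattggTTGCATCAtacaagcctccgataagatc
Nupr1 (chr7:126625553-126625600, minus strand): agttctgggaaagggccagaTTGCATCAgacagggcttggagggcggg
Fgf21 (chr7:45615602-45615649, minus strand): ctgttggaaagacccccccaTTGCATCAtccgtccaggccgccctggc

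Slc7a11 held 2 matches facing opposite ways, which do not overlap each other. Matches were also found for Pycr1, Slc1a4, Aars, Gars and Trib3, that of Trib3 lying 14 bases after the start. Among measured members, the 11 with a match had a median log2 difference of 0.58 and ran from -0.06 to 1.77. The 22 with a window and no match had a median of 0.44 and ran from -0.02 to 1.52. Groups did not overlap, Mll3-null being higher, for 5 of the 11 and for 11 of the 22, against 5.44% of all genes. Members with and without the element in this window thus covered nearly the same range. A match in a window is a description of letters and not evidence of binding.

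One library stood apart in basal markers, and the results are given with and without it. Mll3-null replicate 3 was low in many basal markers: Krt14, a basal keratin, was at 6.65 there against 11.74 to 12.43 on the other arrays, and the median of 11 measured basal and myoepithelial markers deviated from the 6-array mean by -1.85 on the log2 scale, against -0.03 to 0.71 elsewhere. It was the lowest array for 7 of the 11 but the highest for Oxtr, at 8.35 against 4.74 to 6.54 elsewhere. The summed linear level of the 11 basal and myoepithelial markers ran from 7030 to 10300 in WT and from 948 to 10400 in Mll3-null arrays, while that of 13 luminal markers ran from 7020 to 8600 and from 7260 to 9250. The epithelial marker Epcam was at 10.72 to 10.94 on all arrays. Of the 13 luminal markers 7 had a higher and 6 a lower mean in Mll3-null cells, and single ones varied on other arrays too. Foxa1 was at 6.46 in Mll3-null replicate 2 against 8.52 to 9.43 elsewhere. Kit was at 5.38 to 6.83 in WT and at 5.92, 8.76 and 8.16 in Mll3-null replicates 1 to 3. Cldn4 was at 8.24 to 9.28 in WT and 6.78 to 8.01 in Mll3-null cells (these 3 named after their values were seen). Of the other cell types, 10 fibroblast markers summed to 463 to 1840 in WT and 219 to 953 in Mll3-null arrays, 10 leukocyte markers to 1080 to 1670 and 1150 to 1930, 8 endothelial markers to 156 to 167 and 151 to 169, and 7 adipocyte markers to 103 to 118 and 100 to 114. The fibroblast range followed Postn, at 8.12 to 10.68 in WT and 9.58, 9.18 and 3.37 in Mll3-null replicates 1 to 3. The median log2 difference of the 10 fibroblast markers was 0.02, and Dcn, Lum and Fap were under 4 on every array. Cd14, at 9.87 to 10.82, made up most of the leukocyte sums. The defining genes Ptprc of leukocytes, Cdh5 of endothelium and Adipoq of fat were under 4 on every array, near the lower quartile of all probe sets. Kmt2c itself was at 6.63, 5.58 and 5.82 in WT and at 5.84, 6.42 and 6.07 in Mll3-null replicates 1 to 3, so its mRNA did not separate the groups. No source used here says which exons were edited or whether the probe set covers them.

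The response genes stood higher in Mll3-null cells, although none passed the test across all genes. Of the 41 measured members 38 had a higher Mll3-null mean (92.7%), against 51.5% of all genes, and their median log2 difference was 0.52 against 0.01 for all genes. The Mll3-null arrays lay above every WT array for 20 members and below every WT array for 0, against 5.44% and 5.31% of all genes. With limma's moderated test and Benjamini-Hochberg adjustment over 22180 genes, 0 members and 0% of all genes had an adjusted p under 0.05. The smallest adjusted p among the members was 0.84. At an unadjusted p under 0.05, 19 members were higher and 0 lower, where 2.51% and 2.42% of all genes were. That count was 12 without WT replicate 1 (background 1.87%) and 12 without WT replicate 2 (2.17%). With WT replicate 3 left out it was 14 (1.82%). Leaving out Mll3-null replicate 1 gave 16 (6.56%), and leaving out Mll3-null replicate 2 gave 24 (1.70%). The mean was at least 2-fold higher for 10 members and at least 2-fold lower for 0, against 0.532% and 0.622% of all genes. The 10 include Slc7a3, whose WT values were dim.

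The Mll3-null arrays were not alike. Replicate 3 was the highest of the 6 arrays for 28 members and replicate 1 for 11, against 24.4% and 14.2% of all genes, while replicate 2 was the highest for 0 (14.1% of all genes). Replicate 1 lay above all WT arrays for 34 of the 41 members, replicate 2 for 21 and replicate 3 for 32, against 22.5%, 27.5% and 31.6% of all genes. The median deviation of the members from their 6-array mean was -0.30, -0.34 and -0.24 in WT replicates 1 to 3 and 0.30, -0.07 and 0.55 in Mll3-null replicates 1 to 3. Over all members the order was thus WT, then Mll3-null replicate 2, then replicates 1 and 3, with every Mll3-null median above each WT median. This did not hold within every group. In the amino acid transporters Mll3-null replicate 2 was at -0.21, against 0.03, -0.32 and -0.25 in WT replicates 1 to 3. In the tRNA synthetase group it was at -0.21, against -0.17, -0.22 and -0.10 in WT replicates 1 to 3.

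Without Mll3-null replicate 3, the array low in many basal markers, 35 of 41 members had a higher mean in Mll3-null cells (background 50.2%) and the median log2 difference was 0.34. These comprised 33 of the 38 that were higher with it, and Ddit4 and Slc1a5, while Ppp1r15a, Sesn2, Got1, Wars and Xpot then had a lower mean. The 2 remaining Mll3-null arrays exceeded every WT array for 21 members and were below them all for 0, against 9.51% of all genes above. At an unadjusted p under 0.05, 15 members were higher and 0 lower, against 2.07% of all genes higher, and 0 passed the adjusted threshold. The part of the low basal markers in the values of replicate 3 was not tested.

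**Figure D1:**
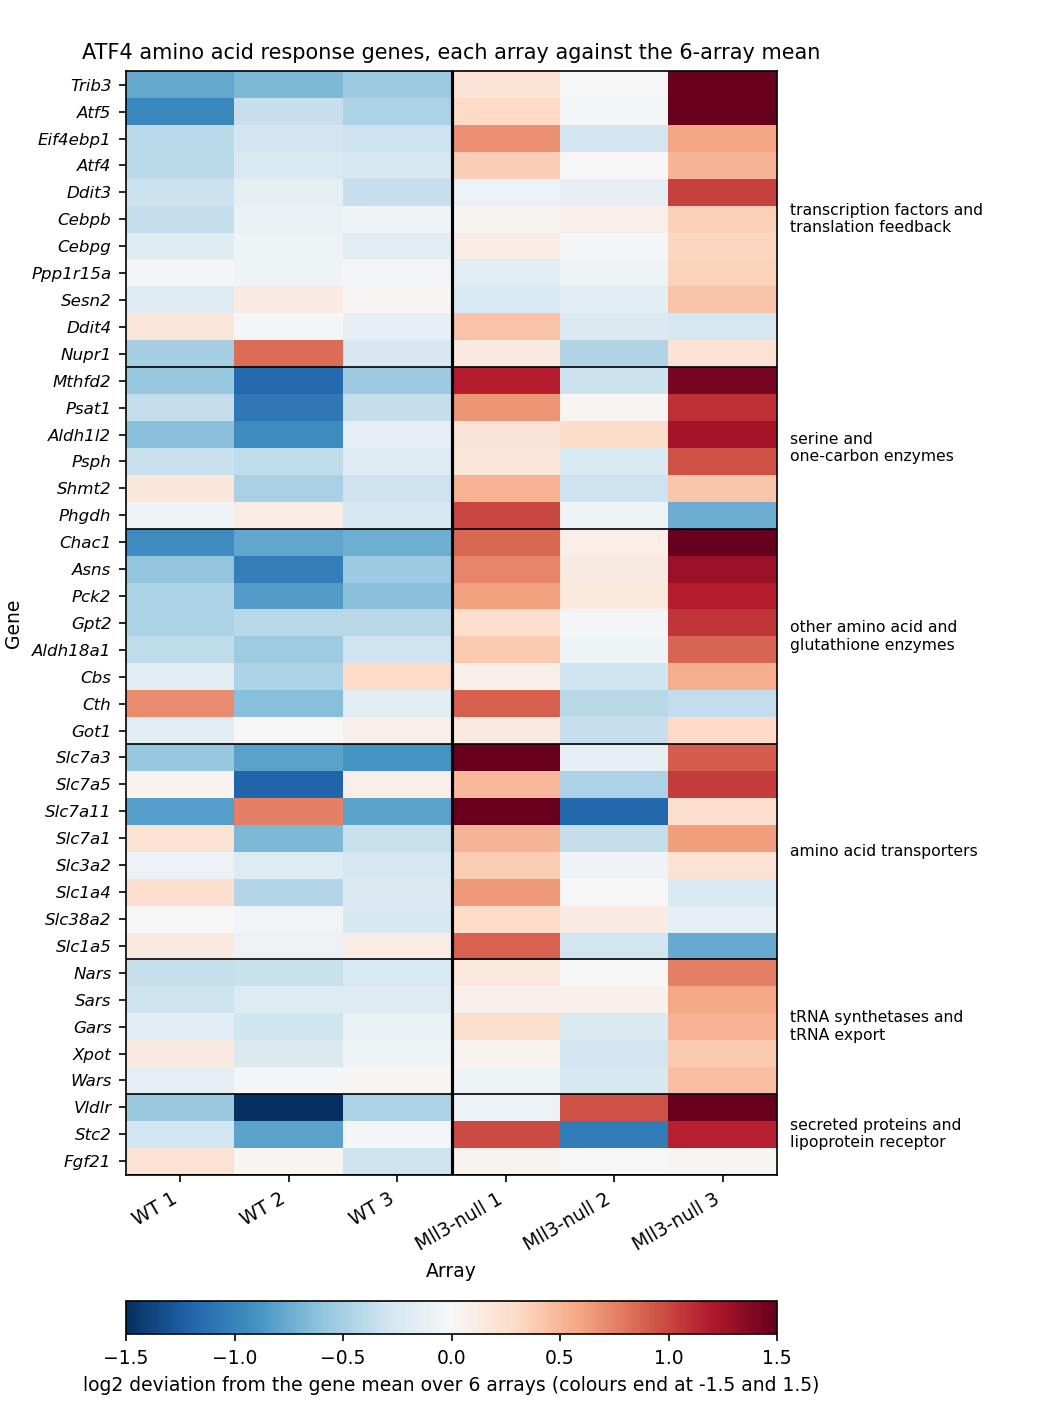
Rows are the 41 measured genes by functional group, columns are the 6 arrays, and colour is the log2 deviation from the gene's mean over 6 arrays (red higher, blue lower, colours ending at -1.5 and 1.5). Mll3-null replicate 3 is the highest array for 28 genes and Mll3-null replicate 1 for 11, while Mll3-null replicate 2 is paler and is the highest for 0.

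The regulators came first in the order of the pathway. Of 11 transcription factors and translation regulators 9 had a higher mean in Mll3-null cells, with a median log2 difference of 0.34 (0.18 without Mll3-null replicate 3). The groups did not overlap for 7, all higher in Mll3-null cells, against 5.44% of all genes. Atf4 itself was at 9.18, 9.36 and 9.34 in WT and at 9.96, 9.60 and 10.10 in Mll3-null replicates 1 to 3 (log2), so every Mll3-null array was above every WT array. The difference was 0.59 ± 0.15 (log2, SE), a 1.51-fold higher mean, with an unadjusted p of 0.00565 and an adjusted p of 0.84 (limma).

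Atf5, a related factor whose message is also under upstream reading frames, was at 6.72, 7.34 and 7.21 in WT and at 7.98, 7.66 and 9.21 in Mll3-null cells. Its groups did not overlap and its difference of 1.19 ± 0.40 was 0.73 without Mll3-null replicate 3. Trib3, a pseudokinase induced by ATF4 that restrains it, was at 6.09, 6.19 and 6.32 against 7.06, 6.87 and 8.63, again with no overlap. Replicate 3 was well above the other Mll3-null arrays, and the difference of 1.32 ± 0.45 was 0.76 without it.

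Ddit3, which encodes the pro-apoptotic factor CHOP, followed replicate 3 almost alone. It was at 5.57, 5.74 and 5.54 in WT and at 5.80, 5.76 and 6.91 in Mll3-null cells. Replicates 1 and 2 stood barely above the highest WT array, and the difference of 0.54 ± 0.31 was 0.17 without replicate 3. Cebpb and Cebpg, bZIP partners of ATF4, did not overlap between groups, Cebpb at 8.95 to 9.26 in WT against 9.34 to 9.66 in Mll3-null cells and Cebpg at 7.97 to 8.08 against 8.13 to 8.47. Their differences were 0.34 ± 0.13 and 0.27 ± 0.11.

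The genes that restrain translation and growth under stress went different ways. Eif4ebp1, a repressor of cap-dependent translation, was at 8.45 to 8.57 in WT and at 9.54, 8.57 and 9.44 in Mll3-null replicates 1 to 3, so replicate 2 was level with the highest WT array. Eif4ebp1 counts among the 7 without overlap only by 8.5703 in that replicate against 8.5689 in WT replicate 2. Its difference was 0.66 ± 0.25. Ppp1r15a, which encodes GADD34, the subunit that directs a phosphatase to eIF2, differed by 0.08 ± 0.14 (95% interval -0.27 to 0.42). Both inhibitors of mTORC1 signalling in the set overlapped between groups, Sesn2 at 0.03 ± 0.19 and Ddit4, also a known hypoxia gene, at -0.02 ± 0.20. The small stress protein gene Nupr1 differed by -0.06 ± 0.37 and was highest in WT replicate 2 at 10.54.

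The plot of 12 genes by array shows both kinds of pattern, genes whose groups stand apart and genes carried by a single array.

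**Figure D2:**
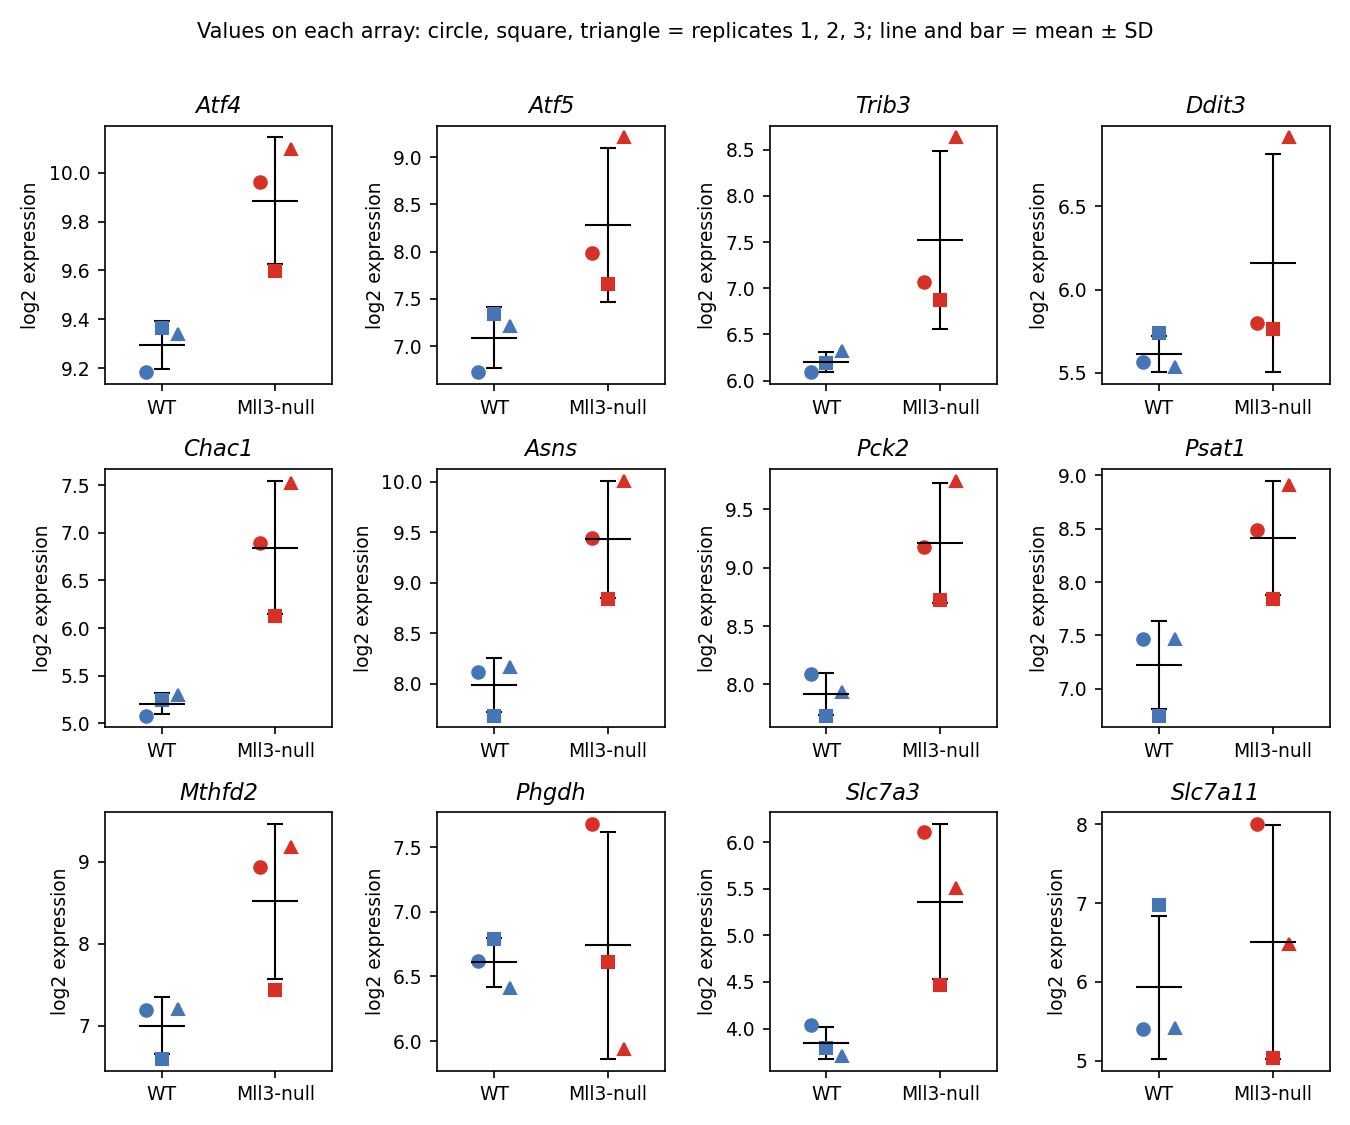
Each panel plots log2 expression of a gene on the 3 WT (blue) and 3 Mll3-null (red) arrays, with circles, squares and triangles for replicates 1, 2 and 3 and a black line and bar for the mean ± SD; the vertical axes do not start at 0. Asns, Chac1, Pck2, Psat1 and Mthfd2 have no overlap between groups, Mll3-null being higher, whereas Phgdh and Slc7a11 overlap and are highest in Mll3-null replicate 1.

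The enzymes of serine synthesis and the mitochondrial folate cycle stood higher as a group. All 6 had a higher mean in Mll3-null cells, with a median of 0.88 (0.67 without Mll3-null replicate 3). The groups did not overlap for 3, all higher in Mll3-null cells, against 5.44% of all genes. Serine is made from a glycolytic intermediate by Phgdh, Psat1 and Psph in turn, and whether these steps differed from each other was not tested. Phgdh, the first and committed enzyme, was at 6.62, 6.79 and 6.41 in WT and at 7.68, 6.61 and 5.94 in Mll3-null cells. Its Mll3-null arrays lay above, within and below the WT range, and its difference of 0.13 ± 0.41 was -0.34 without Mll3-null replicate 1.

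Psat1, the aminotransferase of the next step, was at 7.46, 6.75 and 7.46 in WT and at 8.49, 7.85 and 8.91 in Mll3-null cells. The groups did not overlap and the difference of 1.19 ± 0.31 corresponds to 2.28-fold. Psph, the phosphatase of the last step, was at 6.37 to 6.55 in WT and at 6.92, 6.51 and 7.69 in Mll3-null cells, with replicate 2 inside the WT range (difference 0.60 ± 0.28, and 0.28 without Mll3-null replicate 3).

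In mitochondria Shmt2 splits serine into glycine and a folate-bound carbon, which Mthfd2 oxidises and Aldh1l2 releases as carbon dioxide. Mthfd2 was at 7.19, 6.59 and 7.21 in WT and at 8.93, 7.43 and 9.18 in Mll3-null cells, a difference of 1.52 ± 0.46 or 2.86-fold with no overlap. Aldh1l2 was at 6.12, 5.81 and 6.60 against 6.94, 7.03 and 8.002, also with no overlap (1.15 ± 0.33, and 0.81 without Mll3-null replicate 3). Shmt2 overlapped, at 9.33, 8.67 and 8.85 against 9.68, 8.85 and 9.57 (0.42 ± 0.27), and its difference was 0.27 without WT replicate 2, 0.26 without Mll3-null replicate 1 and 0.67 with Mll3-null replicate 2 left out.

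Aldh1l2 and Shmt2 lie on chromosome 10 with Ddit3, Ddit4 and Xpot, and the 443 expressed genes of that chromosome stood 0.23 log2 units above their 6-array mean in WT replicate 1. With each chromosome's median removed per array, the differences were 1.26 for Aldh1l2, 0.53 for Shmt2, 0.65 for Ddit3, 0.21 for Xpot and 0.09 for Ddit4. Those of Xpot and Ddit4 were 0.10 and -0.02 before.

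Outside the response set, 13 measured genes of folate, serine and glycine metabolism, some of them mitochondrial, were centred near 0, and the difference from the 6 members was not tested. Their median log2 difference was -0.01, with 6 higher and 7 lower means and 0 past the adjusted threshold (limma). At an unadjusted p under 0.05, where 2.51% and 2.42% of all genes were higher and lower, 2 were higher and 0 lower. These were the serine racemase gene Srr, at 6.60 to 6.66 in WT and 6.83 to 7.29 in Mll3-null cells (0.41 ± 0.13), and Mtrr, which reactivates methionine synthase (0.32 ± 0.13, and 0.19 without Mll3-null replicate 3).

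The other enzymes of amino acid and glutathione metabolism held the members with the smallest p. All 8 measured genes had a higher mean in Mll3-null cells (median 0.84, and 0.57 without Mll3-null replicate 3). The groups did not overlap for 5, all higher in Mll3-null cells, against 5.44% of all genes. Asns, which makes asparagine and whose promoter carries the element shown above, was at 8.12, 7.68 and 8.16 in WT and at 9.44, 8.84 and 10.004 in Mll3-null cells. Every Mll3-null array was above the highest WT array, and the difference of 1.44 ± 0.30 was 1.15 without replicate 3.

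Chac1, which degrades glutathione, was at 5.08, 5.24 and 5.29 in WT and at 6.89, 6.12 and 7.52 in Mll3-null cells. The WT arrays lay close together and the Mll3-null arrays well above them, for a difference of 1.64 ± 0.33 and a 3.12-fold higher mean (unadjusted p 0.00196, adjusted p 0.84, limma). Pck2, which makes phosphoenolpyruvate in mitochondria, was at 8.09, 7.73 and 7.94 against 9.17, 8.72 and 9.74 (1.29 ± 0.26). Without Mll3-null replicate 3 the log2 differences of Chac1 and Pck2 were 1.30 and 1.03, and the groups still did not overlap.

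Gpt2, the mitochondrial alanine aminotransferase, was nearly constant in WT at 7.09, 7.15 and 7.15 and stood at 7.83, 7.54 and 8.64 in Mll3-null cells (0.88 ± 0.27, and 0.56 without replicate 3). Aldh18a1, which starts proline synthesis from glutamate, was at 7.76 to 8.001 against 8.24 to 9.18 with no overlap (0.81 ± 0.23). The remaining 3 enzymes overlapped. Got1, the cytosolic aspartate aminotransferase, differed by 0.06 ± 0.18 although its promoter held a match. Of the transsulfuration enzymes, which make cysteine from homocysteine, Cbs differed by 0.22 ± 0.27 and Cth by 0.07 ± 0.46. The difference of Cbs ran from 0.0063 without Mll3-null replicate 3 to 0.43 without Mll3-null replicate 2, and was 0.050 without WT replicate 2 and 0.43 without WT replicate 3. Cth was at 7.93 in WT replicate 1 and 8.12 in Mll3-null replicate 1, while the other 4 arrays ran from 6.58 to 7.05. Pycr1, which completes proline synthesis, was not analysed here because no probe set was paired with it.

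**Figure D3:**
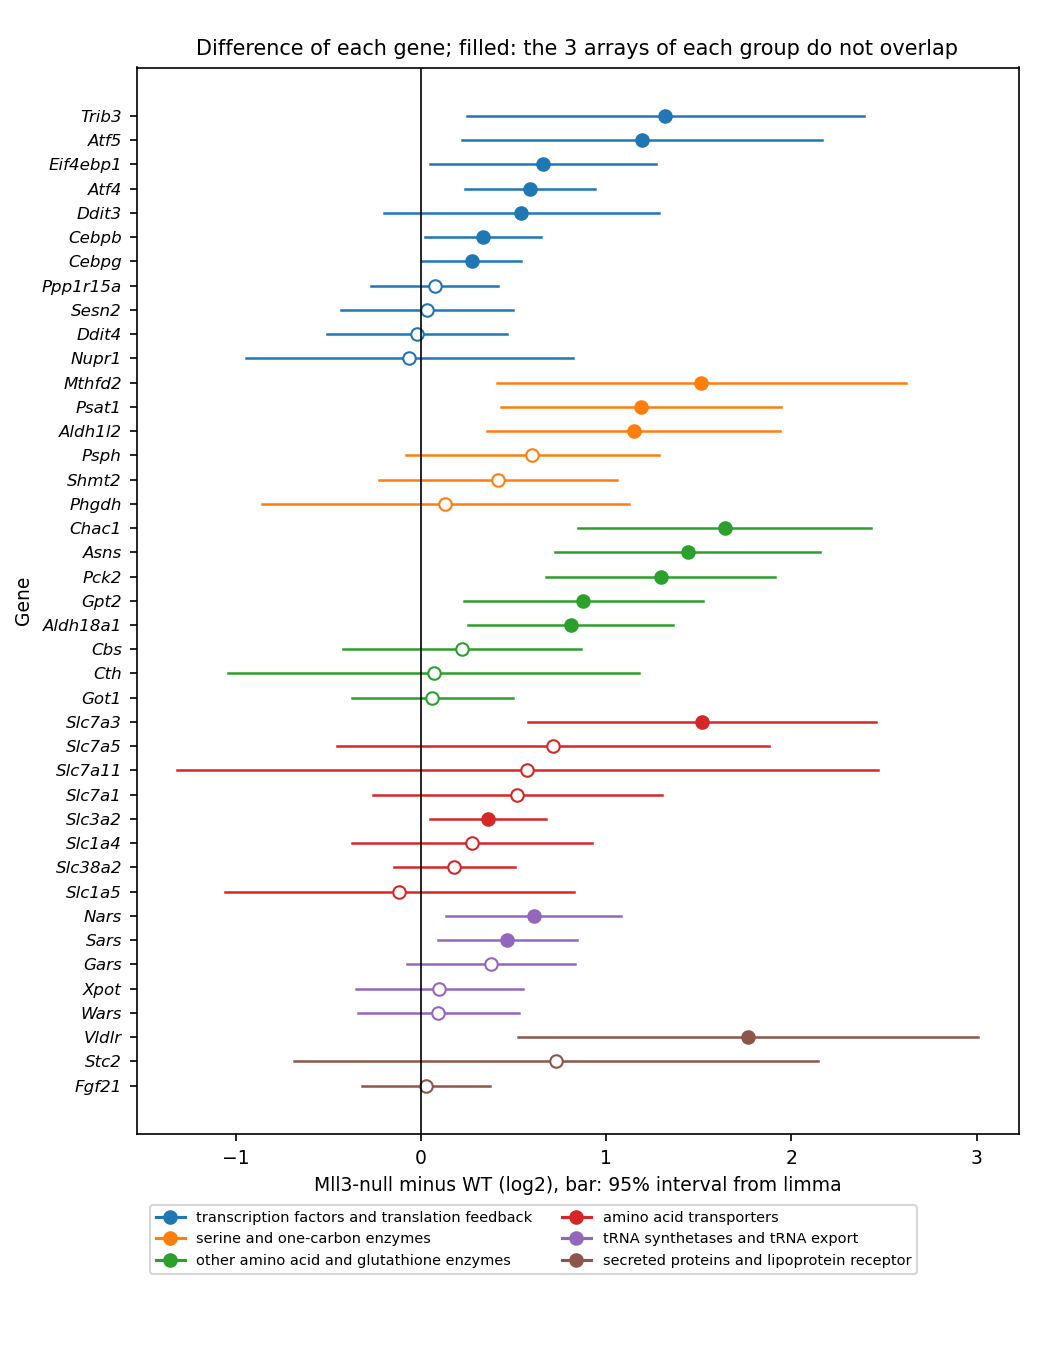
Points are the log2 difference of each gene, Mll3-null minus WT, with bars for limma's 95% interval, coloured by functional group; filled points mark the 20 genes whose 3 Mll3-null arrays all lie above the 3 WT arrays. The difference is above 0 for 38 of 41 genes and runs from -0.12 for Slc1a5 to 1.77 for Vldlr, with 0 genes past the adjusted threshold.

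Among the 8 amino acid transporters 7 had a higher mean (median 0.44, and 0.36 without Mll3-null replicate 3). The groups did not overlap for 2, both higher in Mll3-null cells, against 5.44% of all genes. In this group replicate 1, not replicate 3, was the array with the highest value for 6 of 8 genes. Slc7a3, a carrier of arginine and lysine, was at 4.04, 3.80 and 3.70 in WT, among the dim values of the array, and at 6.11, 4.47 and 5.51 in Mll3-null cells. Its groups did not overlap. The measured difference was 1.52 ± 0.39, but no detection calls were at hand for these dim WT values, so no fold is given. Slc3a2, the heavy chain that several carriers need to reach the membrane, was at 10.40, 10.29 and 10.23 against 10.87, 10.43 and 10.70 (0.36 ± 0.13), with replicate 2 only just above the highest WT array.

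Slc7a11, the cystine carrier that pairs with Slc3a2, varied more within groups than between them. It was at 5.40, 6.98 and 5.42 in WT and at 8.01, 5.04 and 6.48 in Mll3-null cells, so the lowest of the 6 arrays was a Mll3-null array. The difference of 0.58 ± 0.79 was -0.17 without Mll3-null replicate 1, 1.31 with Mll3-null replicate 2 left out and 1.10 without WT replicate 2, and 0.31 and 0.32 without WT replicates 1 and 3. A second, dimmer probe set of this gene ran from 2.81 to 3.33 and was likewise highest in Mll3-null replicate 1. Slc7a11 is also a known target of the oxidative stress factor NRF2. Of 11 measured NRF2 targets 7 had a lower mean in Mll3-null cells (median -0.11), with 0 past the adjusted threshold (limma). At an unadjusted p under 0.05, where 2.51% and 2.42% of all genes were higher and lower, 0 were higher and 1 lower. That gene was Gclc, the catalytic subunit of the enzyme that limits glutathione synthesis, at 8.44 to 9.05 in WT and 8.02 to 8.21 in Mll3-null cells (-0.62 ± 0.16). Me1, malic enzyme, differed by 1.14 ± 0.51, with Mll3-null replicate 1 inside the WT range, and by 0.64 without Mll3-null replicate 3.

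Slc7a5, which imports leucine and other large neutral amino acids, was at 9.78, 8.52 and 9.80 in WT and at 10.22, 9.25 and 10.77 in Mll3-null cells. WT replicate 2 was the lowest array for it and for Slc7a1 and Slc1a4, and without that array the difference of Slc7a5 was 0.29 in place of 0.71 ± 0.49. It was 0.37 without Mll3-null replicate 3 and 1.13 with Mll3-null replicate 2 left out. Slc7a1, an arginine and lysine carrier, was at 7.49 to 8.37 against 7.80 to 8.78 (0.52 ± 0.32), with 0.32 without WT replicate 2, 0.34 without Mll3-null replicate 3 and 0.83 with Mll3-null replicate 2 left out. Slc1a4 differed by 0.28 ± 0.27 and Slc38a2, a sodium-coupled neutral amino acid carrier, by 0.18 ± 0.14. Both leaned on Mll3-null replicate 1, without which they were 0.025 and 0.082, and were 0.46 and 0.29 without Mll3-null replicate 3. Slc1a4 was also 0.47 without WT replicate 1 and 0.12 without WT replicate 2, and Slc38a2 0.10 without WT replicate 3. The glutamine carrier Slc1a5 was the member with the lowest difference, -0.12 ± 0.39, being at 6.85 to 7.08 in WT and at 7.82, 6.64 and 6.17 in Mll3-null replicates 1 to 3. Phgdh and Slc1a5 shared this order of the Mll3-null arrays, as did Slc1a4, Slc38a2 and Ddit4. For replicates 1 and 3 it was the reverse of the order of other members such as Asns and Chac1.

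The 18 measured amino acid carriers outside the response set had 9 higher and 9 lower means and a median of -0.0035, with differences from -0.72 to 2.28. None passed the adjusted threshold (0 of 18, limma). At an unadjusted p under 0.05, where 2.51% and 2.42% of all genes were higher and lower, 0 were lower and 1 was higher. That was Slc38a7, at 7.09 to 7.33 in WT and 7.31 to 8.18 in Mll3-null cells (0.53 ± 0.22, and 0.30 without Mll3-null replicate 3). The taurine carrier Slc6a6 differed by -0.70 ± 0.33, and by -0.33 without Mll3-null replicate 3. The widest difference of the list, named after its values were seen, was that of the glutamine carrier Slc38a3, which varied widely within groups, at 5.80, 4.62 and 7.32 in WT and at 6.11, 8.35 and 10.12 in Mll3-null cells (2.28 ± 1.10).

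Transfer RNA synthetases charge tRNAs with amino acids, and many cytosolic ones are known ATF4 targets. All 5 measured members of this group had a higher mean in Mll3-null cells (median 0.38, and 0.21 without Mll3-null replicate 3), and each was highest in Mll3-null replicate 3. Nars, for asparagine, was at 10.15, 10.16 and 10.27 in WT and at 10.65, 10.50 and 11.25 in Mll3-null cells (0.61 ± 0.20, and 0.39 without replicate 3), with no overlap. Sars, for serine, was at 10.43, 10.53 and 10.54 against 10.80, 10.80 and 11.31 (0.47 ± 0.16, and 0.30 without replicate 3), also with no overlap. Gars, for glycine, had replicate 2 inside the WT range, at 9.73 to 9.92 in WT and 10.29, 9.82 and 10.55 in Mll3-null cells (0.38 ± 0.19). Its difference was 0.21 without Mll3-null replicate 3 and 0.58 with Mll3-null replicate 2 left out. Wars, for tryptophan, and the tRNA exporter gene Xpot overlapped, at 0.09 ± 0.18 and 0.10 ± 0.19. Aars was not analysed here, its only listed probe set naming several genes.

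The 14 measured cytosolic synthetases outside the set had a median of 0.32 (0.17 without Mll3-null replicate 3), with 12 higher and 2 lower means. Groups did not overlap for 4 with Mll3-null higher and 1 with it lower, against 5.44% and 5.31% of all genes. Tars, for threonine, was at 9.33 to 9.49 in WT and 9.55 to 10.18 in Mll3-null cells (0.43 ± 0.17), and Iars, for isoleucine, at 9.45 to 9.79 and 9.83 to 10.49 (0.49 ± 0.19). Without Mll3-null replicate 3 they differed by 0.26 and 0.29. The 16 measured mitochondrial synthetases had a median of 0.07, with 10 higher and 6 lower means. Pars2 differed by 0.36 ± 0.15 (0.22 without Mll3-null replicate 1). Mars2 differed by 0.31 ± 0.13 (0.20 without Mll3-null replicate 3, and 0.14 with chromosome medians removed). It lies on chromosome 1 with Iars2 and the cytosolic synthetase genes Eprs and Farsb, which differed by 0.55 ± 0.26 and 0.57 ± 0.30. The 510 expressed genes of chromosome 1 stood 0.28 log2 units above their 6-array mean in Mll3-null replicate 3 and 0.08 in replicate 2. The part of this shift in Eprs and Farsb was not tested, and 0 members of the response set lie there. In both lists 0 genes passed the adjusted threshold (limma), and 3 of the cytosolic and 0 of the mitochondrial genes were higher at an unadjusted p under 0.05, with 0 lower in either. Of all genes 2.51% were higher and 2.42% lower at that limit. The difference between the lists was not tested.

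The last group holds secreted factors and a lipoprotein receptor. Vldlr, the very low density lipoprotein receptor and also a known hypoxia gene, stood higher in Mll3-null cells. It was at 6.99, 5.92 and 7.07 in WT and at 7.46, 8.50 and 9.32 in Mll3-null cells, with no overlap and a difference of 1.77 ± 0.52 or 3.40-fold. Its order among the Mll3-null arrays was not that of Asns, since replicate 1 was the lowest, and its difference without WT replicate 2 or Mll3-null replicate 3 stayed at 1.32 or above. Stc2, a secreted glycoprotein, was at 6.44, 5.92 and 6.71 against 7.70, 5.67 and 7.89, so replicate 2 was below all WT arrays (0.73 ± 0.59). The difference was 0.42, 1.44 and 0.33 without Mll3-null replicates 1, 2 and 3 in turn. Fgf21, a stress-induced hormone, was dim at 3.75 to 4.29 on all arrays and differed by 0.03 ± 0.14. Gdf15, another stress-induced hormone, was not analysed here, no probe set having been paired with it.

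The genes that act upstream of ATF4 were centred near 0 as a list. Of 15 measured genes for eIF2 kinases, eIF2, its exchange factor eIF2B and their regulators the mean in Mll3-null cells was higher for 6 and lower for 9 (median -0.03, and -0.07 without Mll3-null replicate 3). With limma 0 passed the adjusted threshold. At an unadjusted p under 0.05, where 2.51% and 2.42% of all genes were higher and lower, 0 were higher and 3 lower. Groups did not overlap for 4, all lower, against 5.31% of all genes lower without overlap. Eif2b3, a subunit of eIF2B, was at 7.04, 6.93 and 6.96 in WT and at 6.65, 6.69 and 6.75 in Mll3-null cells (-0.28 ± 0.08). Oma1, a mitochondrial protease of the stress pathway, was at 7.10 to 7.21 against 6.76 to 6.96 (-0.27 ± 0.09). The other gene under that limit was Eif2b2, another eIF2B subunit, at -0.29 ± 0.12, and Eif2b5 was the remaining gene without overlap at -0.17 ± 0.09. The widest difference of the list went the other way. It was that of Ppp1r15b, at 7.69 to 8.004 in WT and 7.91, 8.33 and 8.99 in Mll3-null replicates 1 to 3 (0.54 ± 0.27). These last 3 genes were named after their values were seen.

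Chaperones and folding factors under ATF6 and XBP1, the other branches of the endoplasmic reticulum stress response, were also centred near 0. Of 17 measured genes the mean was higher for 6 and lower for 11 (median -0.03, and -0.11 without Mll3-null replicate 3), and 0 passed the adjusted threshold (limma). At an unadjusted p under 0.05, where 2.51% and 2.42% of all genes were higher and lower, 0 were lower and 2 were higher. These were Herpud1, a degradation factor known to answer to ATF4 as well, at 8.73 to 9.32 in WT and 9.42 to 9.62 in Mll3-null cells (0.47 ± 0.16), and Xbp1 itself at 9.59 to 9.85 against 9.81 to 10.62 (0.55 ± 0.21, and 0.35 without Mll3-null replicate 3). The widest difference of the list, named after its values were seen, was that of Atf6 itself (0.61 ± 0.31). It was at 7.84 to 8.0005 in WT and 7.98, 8.37 and 9.27 in Mll3-null replicates 1 to 3. Atf6 lies on chromosome 1, and the part of that chromosome's shift in its values was not tested.

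**Figure D4:**
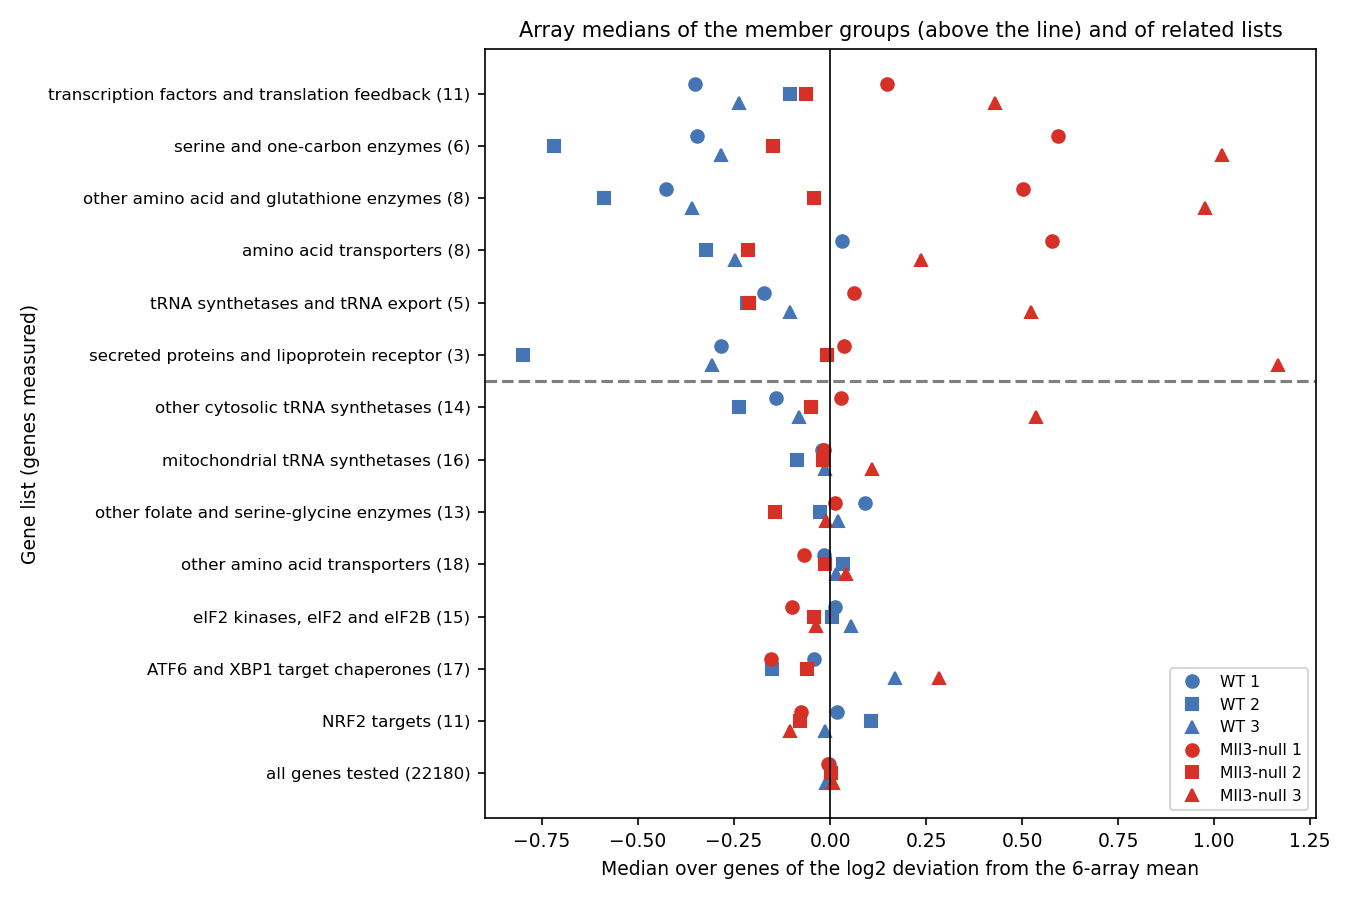
Each point is an array's median over the genes of a list of the log2 deviation from the 6-array mean, with WT in blue, Mll3-null in red, and circles, squares and triangles for replicates 1, 2 and 3; the 6 groups of response genes are above the dashed line and related lists and all genes below it. In the serine group the Mll3-null arrays lie at 0.59, -0.15 and 1.02 and the WT arrays at -0.35, -0.72 and -0.29, whereas the medians of all genes lie within 0.01 of 0.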

How the data were processed

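Total RNA from 6 organoid samples was read on Affymetrix arrays. Affymetrix Expression Console is named in the submitters' processing notes, and its version, summarization and normalization are not stated in any source at hand. The values deposited by the authors were read as log2 expression, since they run from 1.72 to 13.56 and the array medians from 4.35 to 4.40. Equal medians hide any shift in total RNA, and precision is limited by how few arrays there are.

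Of 41345 probe sets 23521 had exactly 1 symbol in the platform annotation, and each of 22180 genes took its probe set with the highest mean. The comparison used limma (version 3.58.1, R 4.3.3): lmFit on genotype alone, eBayes, a two-sided test, Benjamini-Hochberg over 22180 genes and a threshold of 0.05. The scripts were tested on simulated data. Differences are Mll3-null minus WT with the moderated SE, and expressed means a mean log2 value over 6.

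Members and lists were chosen with earlier results of these data known. All members are named, as are the 2 genes with the smallest p of each related list. Alternatives were other spread models, array weights, filters, normalizations, probe set choices, a replicate block, removed chromosome medians and left-out arrays.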

Additional observations from a re-analysis of the deposited data

How the results depend on the processing

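The 0 members past the test, and the count of members with a higher mean to within 1.5 times, held under every alternative run, with 30 to 41 members higher. The median difference of 0.52 was 0.20 with array weights, which gave Mll3-null replicate 2 a weight of 2.75 and replicates 1 and 3 weights of 0.64 and 0.52, and 30 members then had a higher mean. Leaving out each array in turn gave medians from 0.34 to 0.74, 35 to 41 members higher and 0 past the test. The replicate numbers are shared between groups, but deviations of same-numbered arrays correlated at 0.035, 0.079 and 0.312, so they were not taken as pairs. With a replicate block 0 members passed, 38 were higher and the median was 0.52. At an unadjusted p under 0.05, 23 members were then higher. In that fit 1290 of 22180 genes were under this limit in either direction, against 1093 in the main fit. Not every array correlated best with its own number. At an adjusted threshold of 0.01, 0 passed.

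Signs turned mostly for members with differences near 0, but also for Stc2 and Slc7a11, which differed by 0.73 and 0.58, and the cause was not tested. With array weights the differences were -0.054 for Sesn2, -0.14 for Got1, -0.24 for Cth, -0.035 for Cbs, -0.11 for Slc7a11, -0.068 for Wars, -0.11 for Xpot and -0.10 for Stc2. Fgf21 was at -0.0015 after quantile normalization, and Ddit4 at 0.090 with chromosome medians removed. Without both WT replicate 1 and Mll3-null replicate 3 they were -0.065 for Ppp1r15a, -0.26 for Sesn2, 0.19 for Ddit4, -0.14 for Got1, -0.021 for Cbs, 0.28 for Slc1a5 and -0.15 for Wars. Over the left-out arrays the range was -0.17 to 0.15 for Sesn2, -0.24 to 0.10 for Ddit4, -0.070 to 0.25 for Got1, -0.33 to 0.34 for Nupr1, -0.36 to 0.44 for Cth, -0.12 to 0.15 for Fgf21, -0.34 to 0.54 for Phgdh, -0.17 to 1.31 for Slc7a11, -0.58 to 0.24 for Slc1a5, -0.076 to 0.18 for Ppp1r15a, -0.10 to 0.24 for Wars, -0.068 to 0.27 for Xpot and -0.11 to 0.41 for Kmt2c.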
